A study of Danio rerio with 6 samples.

Results

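The interleukin and interleukin receptor genes of the injured zebrafish endocardium were taken by symbol, as every gene whose name begins with il and a digit. This gave 31 of the 17835 genes listed, both ligands and receptor chains. Endocardial cells, the inner lining of the heart chambers, were sorted as living EGFP+ cells from ventricles of adult ET(krt4:EGFP)sqet33-1A fish, an enhancer trap line, at 96 hours post cryoinjury (hpci). The comparison was between 3 libraries from myd88+/+ fish and 3 libraries from myd88-/- siblings (allele hu3568). Every fish was cryoinjured and carried the reporter, the stated strain was AB with an age of 3 to 12 months for the whole study, and each library pooled 4 ventricles. The mutation was present in all cells of the fish, so endocardial cells and leukocytes were both affected. The values are normalized read counts rounded to whole numbers, and are called normalized counts here. In such bulk samples, fewer cells of a type and less RNA per cell cannot be told apart.

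Interleukins are secreted signalling proteins of immune and stromal cells. IL-1 and IL-18 family receptors carry a TIR domain and signal through the adaptor MyD88 to NF-kB, and IL1B is itself a classical NF-kB target. Most other interleukins use cytokine receptors without enzyme activity that recruit JAK kinases and STAT factors, and SOCS proteins feed back on this pathway. IL-17 receptors have their own adaptor, and IL-34 binds Csf1r, the receptor that macrophages need.

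The targeted gene was examined first. myd88 (ENSDARG00000010169, danRer11 chromosome 24, 20188914 to 20192996, minus strand) had normalized counts of 1305, 1149 and 1070 in the wild-type and 817, 575 and 849 in the mutant libraries, so that the genotypes did not overlap although transcript was still read in the mutants. The log2 fold change stood at -0.67 ± 0.17 (SE), and adjustment left a limma p of 0.15. None of the 31 interleukin genes lies on chromosome 24 (0 of 31).

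Library sums ran from 11136966 to 11847536. All 15 endocardial and endothelial markers were detected, with summed counts of 68383 to 81232 in myd88+/+ and 61616 to 72174 in myd88-/- libraries, 9 lower and 6 higher in myd88-/- cells (median log2 fold change -0.22). Of 15 macrophage markers, 14 were listed, 11 lower and 3 higher (median -0.55), with sums of 3600 to 7155 against 2620 to 5798. Of 10 neutrophil markers, 4 were listed and 3 tested, all 3 lower (median -0.62, sums 876 to 1324 against 723 to 1112), and the defining markers mpx and lyz were not among the genes listed. Of 13 lymphocyte markers, 5 were listed and 4 tested (median -0.17, sums 64 to 108 against 41 to 68). The medians were -0.38 for 9 epicardial or fibroblast markers (sums 56271 to 62035 against 29779 to 57334), -0.04 for 6 cardiomyocyte markers (7106 to 10649 against 7442 to 10521), 0.48 for 3 thrombocyte markers (6609 to 10810 against 9975 to 13061) and 1.27 for 7 erythrocyte genes (26 to 474 against 250 to 684). Single libraries moved these medians: without myd88-/- replicate 2 the epicardial or fibroblast median was 0.080 and the endocardial -0.037, without myd88+/+ replicate 2 the macrophage median was -0.26 and the neutrophil -0.28, and without myd88+/+ replicate 3 the erythrocyte median was 0.30. Single genes also dominated some sums. The thrombocyte sum was almost all thbs1b (6591 to 13044), whose log2 fold change was the median of 0.48. The other thrombocyte markers had few reads and went opposite ways, itga2b at -0.41 and gp1bb at 0.74. Most of the epicardial or fibroblast sum was dcn (23349 to 51293), and most of the neutrophil sum was nccrp1 (673 to 1209). The library of myd88-/- replicate 3 differed from the other mutant libraries, with a krt4 count of 44876 where the other 5 lay between 12266 and 23289, and a tbx18 count of 374 where the other 5 lay between 104 and 156. Where the direction of an interleukin gene turned without this library, its log2 fold change is given with and without it.

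Of the 31 genes, 28 had a mean above 5 over the 6 libraries and were tested. Of these, 17 were lower and 11 higher in myd88-/- cells, at a median of -0.15 on the log2 scale, where the median of all 16383 genes tested was 0.01. That median rested on single libraries. Leaving out wild-type replicate 1, 2 or 3 gave 0.010, 0.0099 or -0.23, and leaving out mutant replicate 1, 2 or 3 gave -0.037, -0.015 or -0.18. No interleukin gene was past the criteria of the study (adjusted p under 0.05 and a change beyond 1.5-fold in either direction), which 0.702% of all genes tested passed. An unadjusted limma p under 0.05 was reached by 3 genes, all lower, namely il1b, il15l and il34. These are 10.7% of the 28, against 6.97% of all genes tested that were lower at this level and 6.20% that were higher. The same 3 were the genes in which every mutant library lay below every wild-type library, against 8.98% of all genes tested, and 0 of 28 lay entirely above, against 9.09%. These shares lay near the background, and nothing about the family as a whole is read from them. The precision set what could be seen: the median half-width of the 95% interval of a log2 fold change was 0.80.

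**Figure D1:**
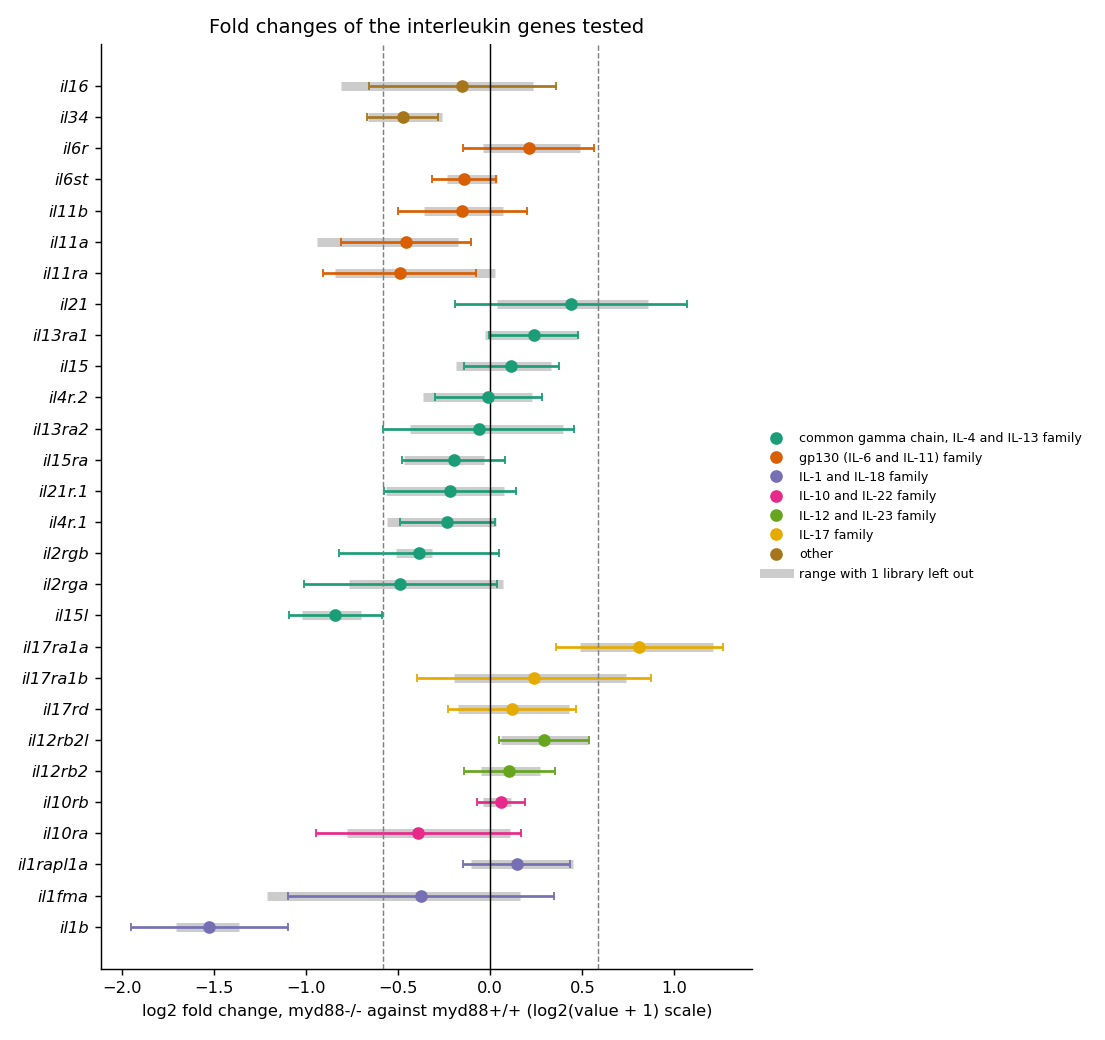
Log2 fold changes of the 28 interleukin genes tested (x axis, log2(value + 1) scale; bars are standard errors from limma), grouped by receptor family in colour, with the range over fits that left out 1 library in grey and dashed lines at 1.5-fold. il1b lies lowest at -1.53 and il17ra1a highest at 0.81, and the grey ranges of 19 genes cross 0.

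The IL-1 family held the largest difference. il1b (ENSDARG00000098700, chromosome 10, 44955106 to 44964776, plus strand), the pro-inflammatory cytokine IL-1 beta, had normalized counts of 21, 18 and 13 in the wild-type and 4, 6 and 6 in the mutant libraries. The lowest wild-type library was thus above the highest mutant library by more than 2-fold. The means were 17.3 ± 4.04 and 5.33 ± 1.15 (SD, n = 3), so that the mutant mean was 30.8% of the wild-type mean. The log2 fold change was -1.53 ± 0.43 (SE), with a 95% interval of -2.49 to -0.56, a limma p of 0.00587 before and 0.177 after Benjamini-Hochberg adjustment, and il1b therefore did not pass. These are few reads. Counting error alone was about 29.7% at its mean over the 6 libraries and larger at the mutant counts. Leaving out 1 library at a time gave -1.71 to -1.36, and over all alternatives the adjusted p ran from 0.110 to 0.474.

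Because il1b is known from leukocytes as well as from endothelium, its counts were set beside leukocyte markers in the same libraries. For each 1000 summed macrophage marker counts there were 3.83, 2.52 and 3.61 il1b counts in the wild-type and 1.53, 2.17 and 1.03 in the mutant libraries. For each 1000 summed neutrophil marker counts there were 15.9, 13.8 and 14.8 against 5.53, 7.44 and 5.40. Against both sums the genotypes did not overlap, but nccrp1 alone made up 83.8% to 93.2% of the neutrophil sum. The second ratio is thus mainly one to nccrp1. As mpx and lyz were not listed, it cannot be read as a ratio to neutrophils. The mutant ratios rest on il1b counts of 4, 6 and 6, and il1b did not overlap between the genotypes on its own either. Against single markers the answer varied. The ratio of il1b to the marker was lower in every mutant library for 8 of 14 macrophage markers and 2 of 3 neutrophil markers. It overlapped for the other 6, which were marco, c1qa, c1qb, c1qc, mfap4 and cd74b, and for ncf1. Among the 8 were cybb, ptprc and csf1ra, whose own counts were higher in the mutants on the log2 scale. marco, a scavenger receptor of macrophages, had 475, 1008 and 376 against 138, 95 and 303, and its mutant mean was 28.8% of the wild-type mean (-1.83 ± 0.45, limma adjusted p 0.141). ncf1, a subunit of the phagocyte NADPH oxidase, had 69, 104 and 46 against 22, 16 and 36, which is 33.8% (-1.53 ± 0.39, limma adjusted p 0.150). Thus marco and ncf1 were lower by about as much as il1b, at 30.8%. By contrast, mpeg1.2 had 1247, 1434 and 1171 against 993, 713 and 2115, with a mutant mean at 99.2% of the wild-type mean. That mutant mean rested on myd88-/- replicate 3, as the other mutant libraries lay below every wild-type library. In log2 fold change, marco was the lowest of the macrophage markers tested and ncf1 the lowest of the neutrophil markers tested. Of the 14 macrophage markers, 11 were lower and 3 higher. The higher ones were cybb (52, 42 and 12 against 31, 52 and 99, 0.84 ± 0.58), ptprc (0.15 ± 0.40) and csf1ra (0.98 ± 0.65). The part of leukocytes in the il1b difference was not tested.

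**Figure D2:**
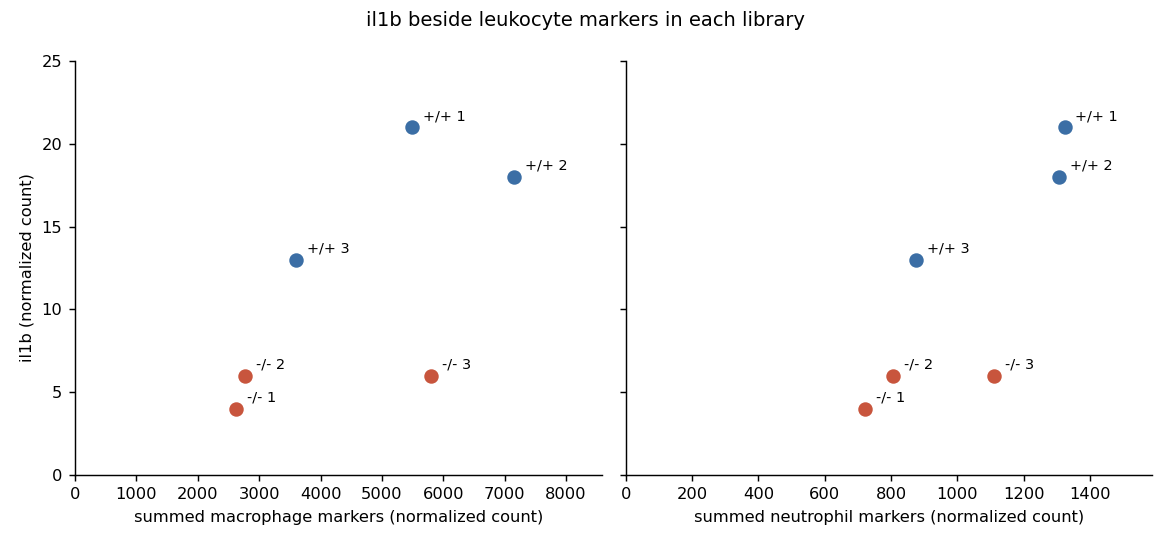
Normalized count of il1b (y axis) against the summed normalized counts of macrophage markers (left) and neutrophil markers (right), 1 point per library (blue, myd88+/+; red, myd88-/-). The mutant libraries lie at 4 to 6 and the wild-type libraries at 13 to 21. The marker sums of the genotypes overlap, while the single markers marco and ncf1, which are within the sums, do not. Most of the neutrophil sum is nccrp1.

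The other 2 members of the family overlapped between the genotypes. il1fma, an IL-1 family ligand of fish, had counts of 33, 46 and 6 in the wild-type and 9, 31 and 15 in the mutant libraries. Both extremes were in the wild-type group, and the log2 fold change, -0.38 ± 0.72 in all, ran from -1.21 when myd88+/+ replicate 3 was left out to 0.16 when myd88+/+ replicate 2 was. il1rapl1a, whose mammalian counterpart IL1RAPL1 is an IL-1 receptor family protein of synapses, had 261, 417 and 454 against 541, 264 and 466, a log2 fold change of 0.14 ± 0.29. It overlaps cmss1 on the other strand, and whether reads from the overlap were counted for it is not known, since strand use in counting is not stated.

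**Figure D3:**
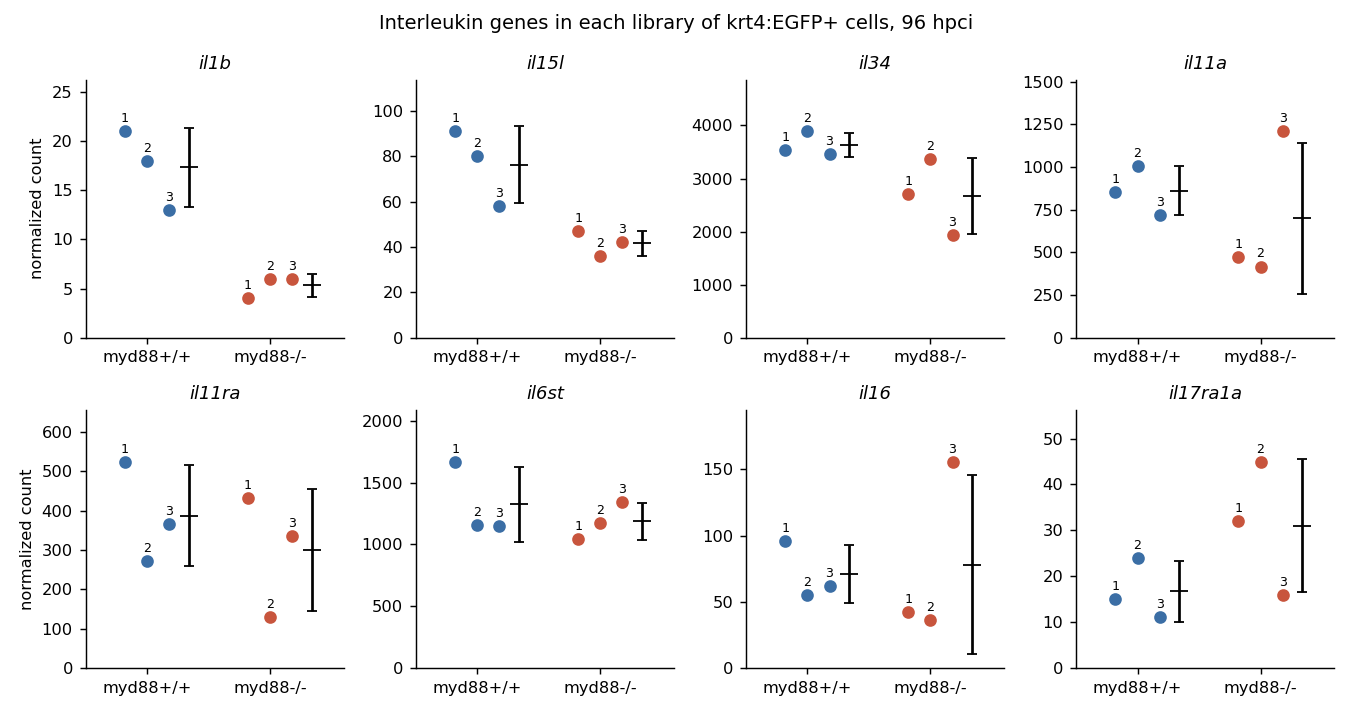
Normalized counts (y axes, from 0) of 8 interleukin genes in each library, with points numbered by replicate (blue, myd88+/+; red, myd88-/-) and black marks for mean and SD of 3 libraries. The genotypes do not overlap for il1b, il15l and il34, and myd88-/- replicate 3 lies above all others for il11a and il16.

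il34 (ENSDARG00000091003, chromosome 18, 18527170 to 18543358, minus strand), a ligand of Csf1r, had the highest counts of the 31 genes. Its normalized counts were 3533, 3890 and 3459 in the wild-type and 2701, 3366 and 1940 in the mutant libraries. The wild-type libraries lay close together and each mutant library was lower, with the narrowest gap between 3459 and 3366. The mutant mean was 73.6% of the wild-type mean, a log2 fold change of -0.48 ± 0.19 (SE, 95% interval -0.91 to -0.05) with a limma p of 0.0337 before and 0.335 after Benjamini-Hochberg adjustment. The size depended on myd88-/- replicate 3, without which it was -0.26 with an unadjusted limma p of 0.0899. The receptor gene csf1ra, a macrophage marker, had counts of 4, 19 and 18 against 11, 27 and 42, with a log2 fold change of 0.98 ± 0.65 and an adjusted p of 0.571.

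Among the genes of the common gamma chain, IL-4 and IL-13 receptors, 8 of 11 were lower and 3 higher, with a median of -0.20. The clearest difference was in il15l (ENSDARG00000007743, chromosome 15, 20352123 to 20363786, plus strand), an IL-15-like cytokine gene. Its normalized counts were 91, 80 and 58 in the wild-type and 47, 36 and 42 in the mutant libraries. All mutant libraries were below the lowest wild-type library, and the mutant mean was 54.6% of the wild-type mean. The log2 fold change was -0.84 ± 0.25 (SE, 95% interval -1.41 to -0.27), with a limma p of 0.00878 before and 0.204 after Benjamini-Hochberg adjustment. It ran from -1.02 to -0.70 with 1 library left out. CR626887.3 on the other strand spans the whole of il15l and had counts of 14, 9 and 6 against 13, 6 and 13, which overlapped.

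il15 itself, the cytokine that sustains natural killer and memory T cells, overlapped between the genotypes. Its counts were 148, 136 and 137 in the wild-type and 135, 112 and 231 in the mutant libraries. The mutant libraries held both the lowest and the highest value, and the log2 fold change was 0.11 ± 0.26 with all libraries and -0.19 when myd88-/- replicate 3 was left out. il15ra, the chain that presents IL-15, had 67, 90 and 64 against 92, 55 and 50 (-0.20 ± 0.28). The difference between il15l and il15 was not tested.

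The receptors of type 2 cytokines were read at high depth. il4r.1, the IL-4 receptor alpha chain, had 2502, 1893 and 1106 in the wild-type and 1359, 1501 and 1581 in the mutant libraries. Its tandem copy il4r.2 had 409, 344 and 179 against 241, 294 and 348. il13ra1, which pairs with the IL-4 receptor chain, had 1952, 1470 and 980 against 1745, 1362 and 1931. For all 3 the spread was wider in the wild-type group, where replicate 3 was the lowest of all 6 libraries. The log2 fold changes were -0.23 ± 0.26, -0.01 ± 0.29 and 0.24 ± 0.24, and the 95% intervals reached from -0.81 to 0.35, from -0.67 to 0.65 and from -0.31 to 0.78. The sign of all 3 turned when single libraries were left out, and without myd88+/+ replicate 3 il4r.1 was at -0.56 with a limma p of 0.00917 before and 0.203 after Benjamini-Hochberg adjustment. The il4r copies lie near each other on chromosome 3 (44048907 to 44060037 and 44002300 to 44012804), and since reads with several matches had been removed, any sequence they share was not counted.

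Low values in myd88+/+ replicate 3 were also seen in other genes. il21r.1, the IL-21 receptor, also on chromosome 3, had 82, 59 and 33 against 36, 46 and 61. Relative to the mean of the other 2 wild-type libraries, replicate 3 stood at 50.3% for il4r.1, 47.5% for il4r.2, 57.3% for il13ra1 and 46.8% for il21r.1. Among feedback genes of JAK-STAT signalling, socs3a stood at 47.5%, socs3b at 46.1% and cish at 43.4%. Of the 11 genes of the gamma chain, IL-4 and IL-13 group, these 4 were the ones lowest in that library, while il15 stood at 96.5%, il2rgb at 118% and il13ra2 at 277%. Genes of other families were low there too, such as il1fma at 15.2% and il10ra at 41.9%. Over the 28 genes tested, this library was the lowest of all 6 for 8 of 28 genes, against 14.3% of all genes tested, and myd88+/+ replicate 1 was the highest for 9 of 28, against 16.4%. In the signalling list described below, 11 of the 41 genes tested were lowest in myd88+/+ replicate 3 and 7 were highest there. The shares of all genes tested were 14.3% and 14.6%. Among those above the other wild-type libraries there was irak1 at 137%. The same library had the lowest macrophage sum of the wild-type group (3600 against 5486 and 7155) and the lowest erythrocyte sum (26 against 251 and 474), and the highest postnb count (13151 against 4594 and 6522). Their part in the receptor values was not tested. These genes were singled out after their values were seen.

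**Figure D4:**
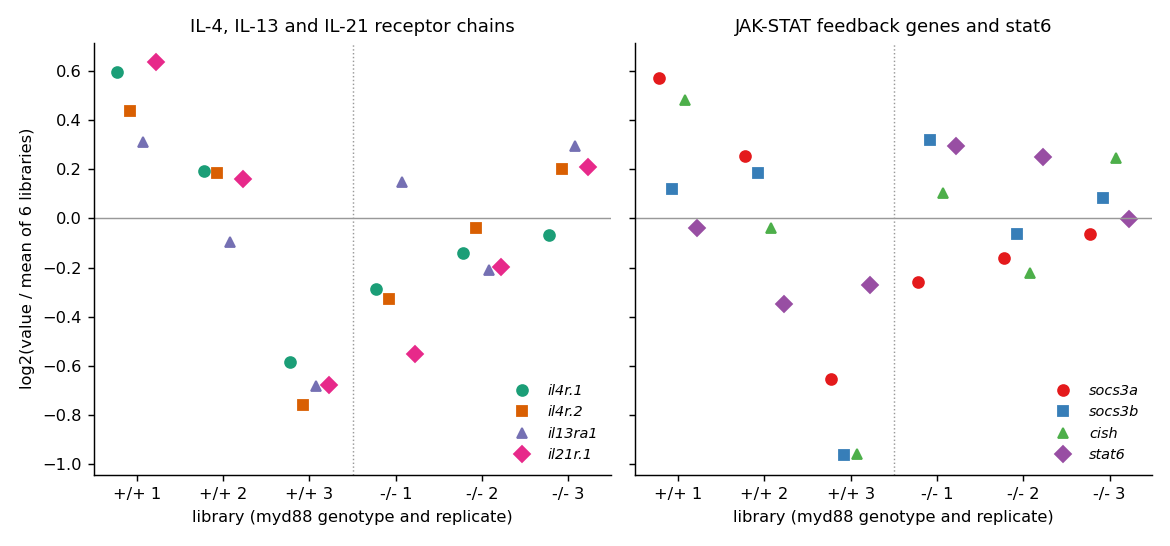
Log2 ratio of each library to the mean of the 6 libraries (y axis) for 4 receptor chains (left) and for 3 JAK-STAT feedback genes with stat6 (right), by library (x axis; dotted line between genotypes). In myd88+/+ replicate 3 all 4 chains and socs3a, socs3b and cish are at their lowest, whereas stat6 is not.

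The remaining genes of this group had few reads. The common gamma chain genes il2rga and il2rgb had 16, 15 and 12 against 4, 15 and 15, and 8, 9 and 10 against 6, 6 and 8. il13ra2, whose mammalian counterpart is a decoy receptor for IL-13, had 5, 8 and 18 against 9, 8 and 9. il21, the ligand of the IL-21 receptor, had 2, 7 and 5 against 9, 3 and 8. At means of 5.67 to 12.8 counting error alone was 27.9% to 42.0%, and the adjusted p-values of these 4 genes lay between 0.739 and 0.973.

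IL-11 and IL-6 act through the shared signal transducer gp130, which il6st encodes. il11a (ENSDARG00000037859, chromosome 16, 12611362 to 12617155, plus strand), an IL-11 cytokine induced in injured zebrafish tissue, had normalized counts of 852, 1007 and 721 in the wild-type and 472, 417 and 1209 in the mutant libraries. The mutant libraries held both the lowest values and the highest, a spread of 63.2% (SD over mean) where the wild-type libraries had 16.6% and counting error was 3.58%. Its log2 fold change of -0.46 ± 0.35 had an adjusted p of 0.620. Without myd88-/- replicate 3 it was -0.94 with a limma adjusted p of 0.0338, which made il11a the only interleukin gene past the criteria in that fit. In the same fit 247 of all 16383 genes tested passed, against 115 with all libraries. In the omitted library il11a was at 2.72 times the mean of the other mutant libraries, il16 at 4.00 times and il15 at 1.87 times. Of the 9 epicardial or fibroblast markers, 5 were at their highest of all 6 libraries there, against 18.9% of all genes tested. An example was lum with 1183 against 413 and 366 in the other mutant libraries. Other markers were not at their highest there, such as postnb with 4766 against 3310 and 6337, and col12a1a with 1131 against 1001 and 1189. The macrophage sum was 5798 there against 2620 and 2766, and the erythrocyte sum was 684 against 250 and 376. The part of such cells in the il11a value was not tested.

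Its receptor chain il11ra had counts of 525, 272 and 366 in the wild-type and 433, 129 and 335 in the mutant libraries. The lowest value was in myd88-/- replicate 2, and the log2 fold change, -0.49 ± 0.42 in all, was 0.03 when it was left out and -0.84 when myd88-/- replicate 1 was. il6st had 1672, 1154 and 1146 against 1041, 1173 and 1345, a log2 fold change of -0.14 ± 0.18 with a 95% interval of -0.54 to 0.25. The groups overlapped, and the interval lay within 1.5-fold on both sides. The second IL-11 gene il11b had counts of 15 to 28 over the 6 libraries, and il6r, the IL-6 receptor, had 23 to 49, with log2 fold changes of -0.15 ± 0.35 and 0.21 ± 0.35. That of il6r became -0.04 without myd88-/- replicate 3.

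In the IL-17 receptor family the 3 genes tested were all higher in myd88-/- cells, none past the criteria. Of all 16383 genes tested, 8367 were higher, so nothing is read from the shared direction. il17ra1a (ENSDARG00000058244, chromosome 4, 12317461 to 12323228, minus strand), a receptor chain for IL-17, had 15, 24 and 11 against 32, 45 and 16. Of the mutants, only replicate 3 lay within the wild-type range. The log2 fold change of 0.81 ± 0.45 was the highest of the 28 genes, with a limma p of 0.109 before adjustment, and without that library it was 1.21 with a p of 0.0189, or 0.203 when adjusted. Its second copy il17ra1b had counts of 2 to 10 and a log2 fold change of 0.24 ± 0.64, which became -0.20 without myd88+/+ replicate 3. il17rd, known as Sef in zebrafish, where it limits FGF signalling, had 30, 35 and 44 against 25, 40 and 59, with a log2 fold change of 0.12 ± 0.35 that became -0.18 without myd88-/- replicate 3. Another receptor chain, il17rc, had a mean below the minimum, with 8, 1 and 0 against 4, 1 and 1, and it overlaps creld1a on the same strand.

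In the IL-10 and IL-12 families the receptor chains differed in precision. il10rb had 770, 762 and 720 in the wild-type and 892, 740 and 721 in the mutant libraries, which overlapped. Its log2 fold change was 0.06 ± 0.13, the smallest standard error of the 28 genes, with a 95% interval of -0.23 to 0.35, within 1.5-fold. The deposited description of this gene names an interferon alpha/beta receptor, so its identity is uncertain. il10ra, the ligand-binding chain for IL-10, had 12, 31 and 9 against 7, 10 and 20, with a log2 fold change of -0.39 ± 0.56. This was -0.78 when myd88-/- replicate 3 was left out and 0.11 when myd88+/+ replicate 2 was. il12rb2, an IL-12 receptor subunit, had 49, 40 and 63 against 55, 56 and 50 (0.10 ± 0.25).

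il12rb2l, listed beside it by symbol but described in the deposited table as a glutamate receptor, had 111, 110 and 122 against 141, 100 and 195, a log2 fold change of 0.29 ± 0.24 that became 0.06 without myd88-/- replicate 3. il20ra, a receptor chain of the IL-10 family, and il12bb, an IL-12 beta subunit, were below the minimum like il17rc. il20ra had 10, 0 and 9 against 1, 2 and 2, and il12bb had 3, 6 and 0 against 2, 0 and 4. In a fit over every listed gene these 3 had unadjusted limma p-values of 0.386 to 0.959.

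il16, a chemoattractant for CD4+ cells in mammals, was uneven within the mutant group. Its counts were 96, 55 and 62 in the wild-type and 42, 36 and 156 in the mutant libraries. The log2 fold change stood at -0.15 ± 0.51, and at -0.81 when myd88-/- replicate 3 was left out, with a limma p of 0.0282 before and 0.239 after Benjamini-Hochberg adjustment. It overlaps stard5 and CABZ01068273.1 on the other strand, whose counts in that library were 13 and 2.

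How far directions held was asked by leaving out each library in turn. The sign stayed the same in all 6 such fits for 9 of the 28 genes. Those always lower were il1b, il15l, il34, il11a, il15ra and il2rgb, which are 21.4% of the genes, against 30.3% of all genes tested. Those always higher were il17ra1a, il12rb2l and il21, which are 10.7%, against 32.2% of all genes tested. For the other 19 genes the direction rested on single libraries.

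A further list of 53 names, of which 42 were listed and 41 tested, is called the signalling proteins here. It is mixed: beside signalling proteins of these receptors it holds related receptor chains such as crfb1 and the cytokine gene clcf1. In myd88-/- cells 17 were lower and 24 higher, at a median of 0.08 on the log2 scale (-0.0047 to 0.13 with 1 library left out, the lowest when mutant replicate 1 was), and none was past the criteria. An unadjusted limma p under 0.05 was reached by 2 lower genes (4.88%) and by 5 higher genes (12.2%), against the 6.97% and 6.20% of all genes tested given above. Besides myd88, the targeted gene itself, the lower gene was stat4, the STAT factor of IL-12 signalling, with 23, 17 and 29 against 7, 19 and 9. Its few reads overlapped between the genotypes. The log2 fold change was -1.01 ± 0.44, with a limma p of 0.0499 before and 0.379 after adjustment.

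The 5 higher genes were stat6, stat1a, ikbkg, socs2 and crfb1. stat6, the STAT factor of IL-4 and IL-13, had 688, 554 and 585 in the wild-type and 866, 839 and 705 in the mutant libraries, without overlap, with a log2 fold change of 0.40 ± 0.14 and an adjusted p of 0.274. stat1a, a STAT factor of interferon signalling, had 1790, 1546 and 1540 against 2187, 1967 and 2207 (0.38 ± 0.12, adjusted p 0.220). ikbkg, the regulatory subunit of the IkB kinase, had 725, 732 and 766 against 1008, 878 and 843. The mutant libraries were above the wild-type libraries for all of these. Of the 41 signalling proteins tested, 7 lay entirely above (17.1%, against 9.09% of all genes tested) and 2 entirely below (4.88%, against 8.98%). The genes named here were taken for their p in the same values, so their lack of overlap is not separate evidence.

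The feedback gene socs2 had 59, 48 and 21 against 87, 60 and 92 (0.98 ± 0.38, adjusted p 0.322), and the receptor chain crfb1 had 192, 191 and 166 against 233, 252 and 255 (0.43 ± 0.15, adjusted p 0.257). Neither overlapped between genotypes. Of the proteins nearest to gp130, jak1 had a log2 fold change of 0.25 ± 0.16 and stat3 of -0.19 ± 0.13. With 1010, 912 and 910 against 896, 714 and 877, stat3 was, beside myd88, the gene counted above as entirely below. Its limma p was 0.181 before and 0.582 after adjustment. socs3a had 60555, 48676 and 25948 against 34081, 36431 and 39087, a log2 fold change of -0.22 ± 0.29 in which the wild-type libraries spanned the whole range of the mutants. Of the proteins that carry the IL-1 signal from MyD88, irak4 had 126, 162 and 177 against 197, 195 and 207 (0.38 ± 0.17, adjusted p 0.398) and traf6 had a log2 fold change of 0.30 ± 0.16 (adjusted p 0.464). Neither reached an unadjusted limma p under 0.05. Others of this route were also higher, with ikbkb at 0.44 ± 0.24, tab1 at 0.35 ± 0.17 and chuk at 0.22 ± 0.13. For tab1 the genotypes did not overlap. Smaller were irak3 at 0.11 ± 0.28, irak1 at 0.10 ± 0.27, tollip at 0.08 ± 0.17 and tab2 at 0.01 ± 0.15. Lower were the kinase gene map3k7 at -0.08 ± 0.11 and tab3 at -0.19 ± 0.15.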

How the data were processed

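RNA of sorted krt4:EGFP+ cells was sequenced after selection of polyadenylated RNA. Per the study's methods and the labels, the authors trimmed reads with Trimmomatic 0.39, aligned them with STAR 2.7.10a to danRer11, removed duplicate, multimapping, ribosomal and mitochondrial reads with Picard 3.0.0, counted reads on exons with featureCounts 2.0.4, leaving out reads on several genes, and normalized with DESeq2 1.36.0. Whether counting used strand is not stated. The deposited values are a score, gene counts divided by a size factor per library and rounded to whole numbers, as gaps among low values showed, so a count test could not be used. Each of the 17835 genes listed reaches at least 6 in 1 library, and genes outside that table were not analysed here. All 6 columns of values were used.

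Values were analysed as log2(value + 1) with limma 3.58.1 in R 4.3.3 (lmFit, eBayes with an intensity trend, two-sided, genotype as the only term) over the 16383 genes with a mean above 5. Benjamini-Hochberg adjustment ran over all of these. Fold changes are on this log2(value + 1) scale, which understates changes of low values. The fit was tested on simulated data with known fold changes. These had a single, lower dispersion for all genes and no differing library, so the test does not cover the spread seen here. For interleukin genes with a mean of at least 100, the median SD over mean was 22.8% in wild-type and 26.7% in mutant libraries. Counting error is 100 divided by the square root of the mean value, and covers counting only. Transcript lengths were not used. Ranks of counts and ratios between genes therefore do not give relative transcript levels, and the ratios serve only to compare libraries. Nothing says beyond the pools how libraries were made separate, so p-values measure the spread between these libraries.

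The members, gene lists (signalling proteins, and markers of endocardial, macrophage, neutrophil, lymphocyte, epicardial or fibroblast, cardiomyocyte, thrombocyte and erythrocyte cells) and limits were chosen with earlier results of these data known. By rule, values per library were given for genes with an unadjusted p under 0.05, the 10 largest changes, the 10 highest means and il1b, il6st, il4r.1, il11a and myd88, and other genes were named after their values were seen. Alternatives were other pseudocounts (0.5 and 5), no filter or a mean above 20, libraries scaled to equal totals, eBayes without trend or robust, the replicate number as a block, and each library left out. A separate gene name table held 30 of the 31 identifiers, 27 of them under the same symbol. Labels give no batch.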

Additional observations from a re-analysis of the deposited data

How the results depend on the processing

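No interleukin gene was past the criteria under any alternative except without myd88-/- replicate 3, where il11a passed, so that leaving out 1 library gave 0 to 1 genes. The number with an unadjusted limma p under 0.05 was 3, and 2 to 5 with 1 library left out. il1b and il15l were among them in every fit that tested them, while il1b was not tested with a mean above 20, and il34 dropped out with equal totals, without the trend, and without each of myd88+/+ replicates 1, 2 and 3 and myd88-/- replicates 1 and 3. Over all genes tested, 115 passed, against 25 without the trend, 45 with the replicate block and 28 to 247 with 1 library left out. The highest number was in the fit without myd88-/- replicate 3, where il11a passed. In the fit with the replicate block 0 interleukin genes passed and 3 had an unadjusted p under 0.05. Deviations of same-numbered libraries from their genotype means correlated at -0.12, 0.13 and -0.14. These values cannot decide whether such libraries were prepared together, since deviations from a mean of 3 libraries depend on each other. The labels do not state it either. Libraries scaled to equal totals moved the median of all genes from 0.01 to 0.07 and il4r.2 to 0.049. The median of the 28 interleukin genes ran from -0.23 to 0.010 with 1 library left out, and that of the signalling proteins from -0.0047 to 0.13. The marker medians ran from -0.35 to -0.037 (endocardial), -0.84 to -0.26 (macrophage), -0.95 to -0.28 (neutrophil), -0.47 to 0.056 (lymphocyte), -0.65 to 0.080 (epicardial or fibroblast), -0.18 to 0.17 (cardiomyocyte), 0.33 to 0.69 (thrombocyte) and 0.30 to 2.06 (erythrocyte). With 1 library left out, the log2 fold changes that turned sign ran over these ranges: il4r.1 -0.56 to 0.030, il13ra1 -0.028 to 0.47, il6st -0.24 to 0.037, il10rb -0.039 to 0.11, il1rapl1a -0.10 to 0.45, il11ra -0.84 to 0.026, il4r.2 -0.36 to 0.23, il15 -0.19 to 0.33, il16 -0.81 to 0.23, il21r.1 -0.57 to 0.076, il12rb2 -0.051 to 0.27, il17rd -0.18 to 0.43, il6r -0.041 to 0.49, il1fma -1.21 to 0.16, il11b -0.36 to 0.069, il10ra -0.78 to 0.11, il2rga -0.77 to 0.071, il13ra2 -0.44 to 0.39 and il17ra1b -0.20 to 0.74. The lowest unadjusted limma p at a turned sign was 0.357. The cause was not tested. Where a genotype kept 2 libraries, limma pooled the spread over both. Depth limited the 10 genes tested with a mean under 30.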

Other observations

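Over the 6 libraries together, the counts of the neighbouring il4r copies varied less against each other than on their own. il4r.1 was at 6.12, 5.50 and 6.18 times il4r.2 in the wild-type and 5.64, 5.11 and 4.54 times in the mutant libraries. Within the mutant libraries alone this did not hold for il4r.1, which varied less on its own (1359, 1501 and 1581). The ratio of il13ra1 to il4r.1 was 0.780, 0.777 and 0.886 in the wild-type and 1.28, 0.907 and 1.22 in the mutant libraries, without overlap, although neither gene was past the criteria on its own. Both ratios were chosen after the values were seen and were not tested.

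Another ligand gene of Csf1r, csf1a (chromosome 11, 23265157 to 23297192), was looked up after il34 had been seen to be lower. Its normalized counts were 54, 33 and 38 in the wild-type and 21, 13 and 21 in the mutant libraries, which gave -1.14 ± 0.33 (SE) on the log2 scale and a limma p of 0.0075 before and 0.195 after Benjamini-Hochberg adjustment. As for il34, the genotypes did not overlap and the gene was not past the criteria.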
